A study of Mus musculus with 6 samples.

Results

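The genes described here are 10 genes of the cell's answer to low oxygen and of glucose breakdown: Slc2a1, Hk2, Aldoa, Pgk1, Ldha, Pdk1, Bnip3, Ndrg1, Egln3 and Hif1a. They were chosen by name, with earlier results of these data known, so their counts beside the whole array are no independent test. All 29 probe sets of the array whose annotation gives one of these symbols and no other were taken. They are out of 34945 probe sets with 1 gene symbol and 45101 in all, and the genes are 10 of 18193 named genes. A probe set is a group of short probes that together give 1 expression value for a transcript. The values are log2 expression values, so a difference of 1 is a 2-fold difference.

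Bone marrow was taken by digestion from 3 mice aged 6 to 8 weeks of the genotype Grem1;TdTomato, bred on C57BL/6J and given tamoxifen by mouth, and each mouse gave a Grem1+ and a Grem1- fraction. The Grem1- fraction was the non-recombined one and had been gated to lack CD45, CD31 and Ter-119, which are surface antigens of blood, endothelial and erythroid cells. The Grem1+ fraction is described only as sorted for Grem1, which encodes the secreted BMP antagonist Gremlin 1, and the labels do not name the driver of the reporter. All groups thus share the alleles and the tamoxifen, and each fraction of each mouse was measured on 1 array, 3 per group.

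When oxygen is plentiful, prolyl hydroxylases such as the product of Egln3 mark the HIF alpha subunits, among them the product of Hif1a, for destruction through the VHL ubiquitin ligase. When oxygen is short the subunits persist, pair with ARNT and bind hypoxia response elements near genes for glucose uptake, glycolysis and the restraint of mitochondrial respiration. Growth plate cartilage has no blood vessels and is a known site of HIF activity, and parts of the marrow are also poor in oxygen.

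Array medians lay between 3.74 and 3.81, and 44.9 to 45.5% of probe sets stood above a log2 value of 4 on each array, a limit that was chosen and below which a value is called dim here. Xist, the RNA of the inactive X chromosome, reached 11.04 and 10.60 on the arrays of mouse 3 and at most 2.99 on the others, although the labels call every animal male. Grem1 itself read 3.69, 3.75 and 3.70 in Grem1- and 4.49, 4.14 and 8.61 in Grem1+ for mice 1, 2 and 3, and its difference did not pass the threshold (adjusted p = 0.245). Ptprc, the gene of CD45, stood at 11.78 to 12.37 in the Grem1- fraction despite its gate. Gapdh control probe sets at the transcript's 3' end exceeded those at its 5' end, a sign of RNA length, by 2.66 ± 0.34 log2 units in Grem1- cells (SD, n = 3) and by 3.58 ± 0.51 in Grem1+ cells (SD, n = 3). The same measure of the actin control was 0.16 ± 0.02 in Grem1- (SD, n = 3) and 0.091 ± 0.11 in Grem1+ (SD, n = 3), so the Gapdh gap was wider in Grem1+ and the actin gap was not. Their part in the results below was not tested.

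Slc2a1 and Hk2, which bring in and hold glucose, Pdk1, which keeps pyruvate out of mitochondria, Bnip3, Ndrg1 and Hif1a were higher in Grem1+ than in Grem1- cells. Each of these 6 genes had at least 1 probe set past the threshold, by 2.43-fold to 17.0-fold. The enzymes further down glycolysis, Aldoa, Pgk1 and Ldha, differed by less and did not pass, and neither did Egln3. Of the 29 probe sets 26 passed the filter on dim values and were tested, and 12 were called higher and 0 lower, where limma called 10.1% of all 18157 tested probe sets higher and 7.76% lower. At an unadjusted p under 0.05 the 26 gave 14, against 35.0% of all tested probe sets, and other analyses of the same table also called 0 of them lower. The median difference was 1.45 over the 26 and -0.01 over all tested probe sets. All Grem1+ arrays lay above all Grem1- arrays for 19 of the 26, against 21.6% of all tested probe sets. Several of the 26 read the same gene, so they are not independent units, and these counts and the median weigh such genes more. With each gene read by its passing probe set with the highest mean, 6 of the 10 genes were higher and 0 lower. Of all 10151 tested genes 11.1% were higher and 7.81% lower.

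The calls rest on adjusted p-values of a fit with the mouse as a block. Those of the 12 called probe sets ran from 0.0181 to 0.0479, close to the threshold of 0.05. With every probe set tested, dim or not, 5 of the 12 kept their call, where 3.13% of all 34945 probe sets were called higher, and with any mouse left out 0 did in the blocked fit, where limma also called 0 of all 18157 probe sets while 4967 to 5158 had an unadjusted p under 0.05. In a fit that ignored the pairing, the called member probe sets numbered 3 without mouse 1, 4 without mouse 2 and 3 without mouse 3, of 26 each. All probe sets were called higher at 6.14%, 6.48% and 6.18% in these fits, so these counts of 3 or 4 show little that is particular to the 10 genes.

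**Figure D1:**
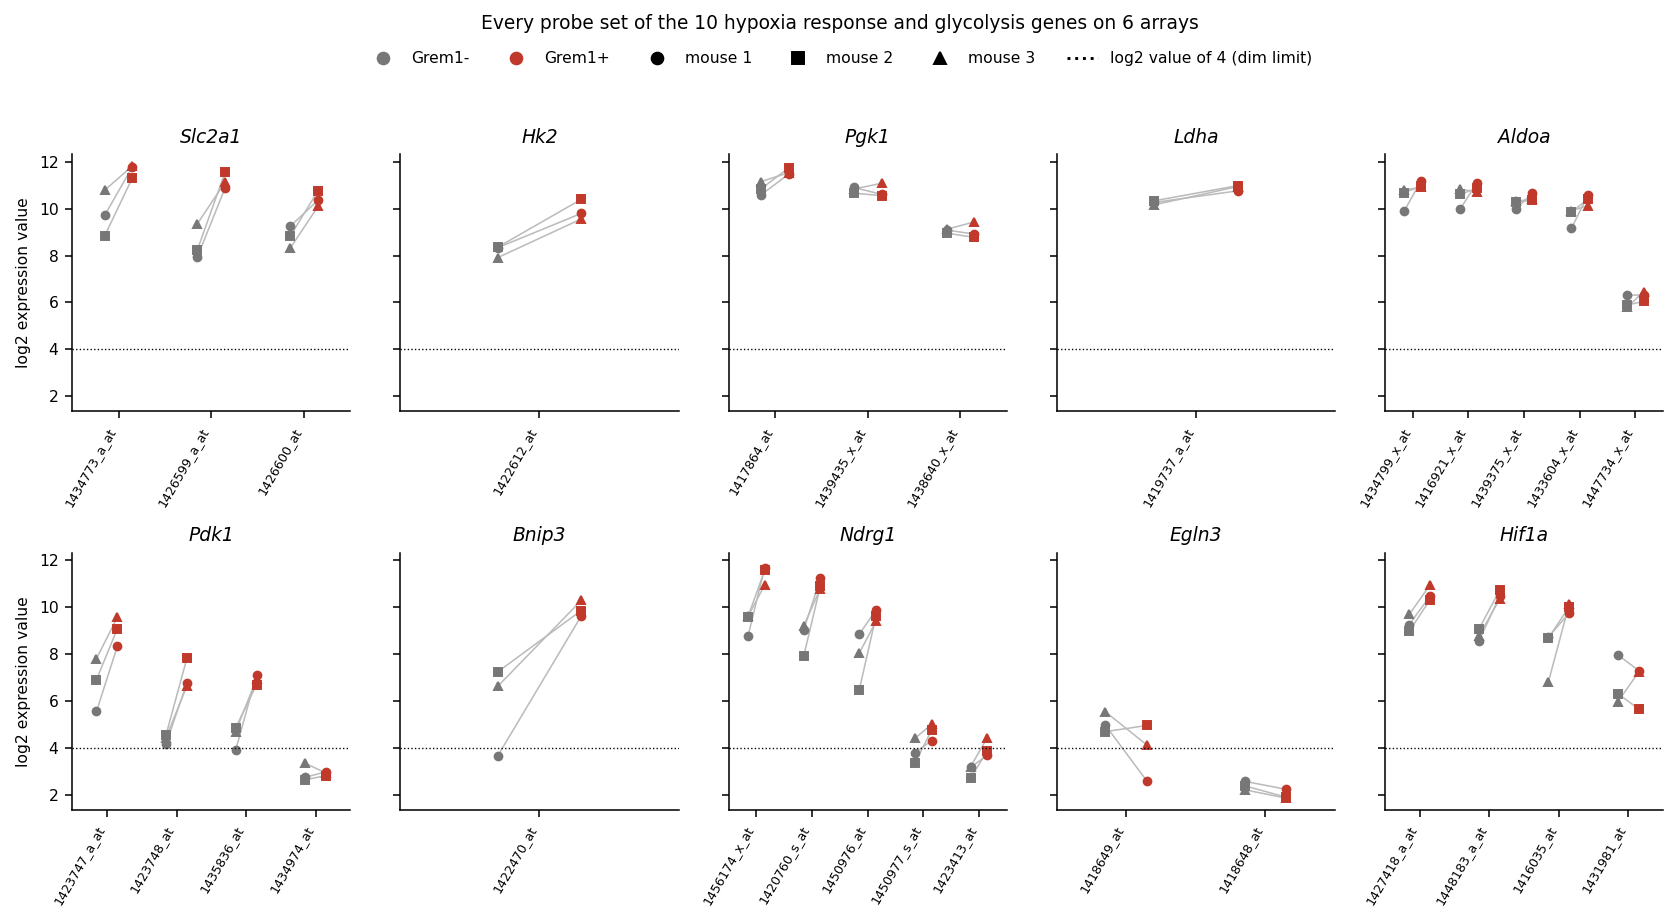
Log2 expression values (vertical axis) of all 29 probe sets of the 10 genes (horizontal axis, 1 panel per gene), with Grem1- in grey, Grem1+ in red, the marker shape giving the mouse and a line joining the fractions of a mouse. The red points lie above all grey points in every probe set of Slc2a1, Hk2, Bnip3 and Ldha, while in Egln3 they lie below the grey point of the same mouse except for mouse 2 in the brighter probe set.

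Glucose enters most cells through GLUT1, the basal glucose transporter encoded by Slc2a1. Its probe set 1426599_a_at read 7.94, 8.24 and 9.36 in the Grem1- fractions of mice 1, 2 and 3 and 10.90, 11.57 and 11.14 in their Grem1+ fractions. The groups did not overlap, and the difference of 2.69 (SE 0.42) was 6.46-fold (limma adjusted p = 0.0255). Probe set 1434773_a_at read 9.71, 8.83 and 10.79 against 11.79, 11.33 and 11.83, a difference of 1.87 (SE 0.40, adjusted p = 0.0478). Here the lowest and highest Grem1- arrays lay further apart than the fraction means, the groups still did not overlap, and mouse 3 had the smallest gap. Probe set 1426600_at read 9.25, 8.82 and 8.31 against 10.36, 10.77 and 10.10, a difference of 1.62 (SE 0.32, adjusted p = 0.0411). The 3 probe sets thus all passed, with the Grem1+ arrays on top in each, and all 3 lost their call when dim probe sets were tested too (adjusted p = 0.0577 to 0.0891).

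Hexokinase 2, the product of Hk2, phosphorylates glucose and so holds it in the cell. Its only probe set read 8.34, 8.36 and 7.91 in Grem1- and 9.80, 10.40 and 9.56 in Grem1+. Every Grem1+ array stood above every Grem1- array, and the difference of 1.72 (SE 0.30) was 3.29-fold (limma adjusted p = 0.0305). The call held in each of 11 other analyses that kept all mice, with adjusted p-values of at most 0.0407.

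Of the middle and end of glycolysis, Aldoa, Pgk1 and Ldha moved less than Slc2a1 and Hk2. Aldolase A, the product of Aldoa, splits the 6-carbon sugar, and its 5 probe sets differed by 0.28 to 0.74. The largest, 1433604_x_at, read 9.16, 9.85 and 9.91 against 10.59, 10.42 and 10.14, with a 95% interval of the difference from -0.25 to 1.73. Mouse 1 carried much of it, with a gap of 1.43 against 0.57 and 0.22 in mice 2 and 3. All Aldoa probe sets have names ending in _x_at, the maker's mark for probes that other sequences may share, so no Aldoa value here is free of that doubt.

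Phosphoglycerate kinase 1, encoded by the X-linked Pgk1, makes ATP in glycolysis, and its probe sets disagreed. Probe set 1417864_at read 10.59, 10.85 and 11.16 against 11.48, 11.75 and 11.54, without overlap, a gap of 0.73 (SE 0.30), which was not past the threshold (limma adjusted p = 0.174) and passed only with the trend and robust settings of limma (adjusted p = 0.0449). The probe sets 1439435_x_at and 1438640_x_at, which other sequences may share, differed by -0.05 and -0.01, with overlapping groups and 95% intervals from -0.85 to 0.75 and from -0.81 to 0.79. With the mean of its 3 probe sets the gene differed by 0.22. Which probe sets are read therefore decides whether Pgk1 shows a gap between the fractions.

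Lactate dehydrogenase A, the product of Ldha, turns pyruvate into lactate. It read 10.27, 10.34 and 10.17 in Grem1- and 10.76, 10.99 and 10.95 in Grem1+, and the groups did not overlap. The difference was small and even, at 0.50, 0.65 and 0.78 in mice 1, 2 and 3, and its mean of 0.64 (SE 0.28, 95% interval from -0.12 to 1.40) did not pass (limma adjusted p = 0.193). The interval leaves room for no difference and for one of more than 2-fold.

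Pyruvate dehydrogenase kinase 1, encoded by Pdk1, switches off the enzyme that feeds pyruvate into the citrate cycle. Probe set 1423748_at read 4.16, 4.55 and 4.43 in Grem1- and 6.77, 7.83 and 6.64 in Grem1+, a difference of 2.70 (SE 0.35) or 6.48-fold, with the lowest adjusted p of all 26 probe sets (limma adjusted p = 0.0181). Probe set 1435836_at read 3.89, 4.85 and 4.69 against 7.11, 6.69 and 6.93, a difference of 2.43 (SE 0.39, adjusted p = 0.0268). The Grem1- arrays of both sit close to the dim limit while all Grem1+ arrays are well clear of it. Probe set 1423747_a_at read 5.55, 6.90 and 7.81 against 8.33, 9.08 and 9.57, a difference of 2.24 (SE 0.34, adjusted p = 0.0239). In this probe set mouse 3 was highest and mouse 1 lowest within each fraction, and the gap was 2.78, 2.18 and 1.76. The remaining probe set, 1434974_at, was dim on all 6 arrays, at 2.63 to 3.33, and was not tested. Probe set 1423748_at was also the only one of the 10 genes called with each of the 3 mice left out when the block was dropped.

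Bnip3 encodes a mitophagy receptor of the outer mitochondrial membrane and showed the largest difference of the 10 genes. Its probe set read 3.65, 7.24 and 6.62 in Grem1- and 9.62, 9.86 and 10.29 in Grem1+. The Grem1+ arrays were alike and the Grem1- arrays were not, since mouse 1 was dim. The difference of 4.09 (SE 0.73, 95% interval from 2.11 to 6.06) was 17.0-fold (limma adjusted p = 0.0324) and was 5.97, 2.62 and 3.67 in mice 1, 2 and 3. Leaving out mouse 1 gave 3.14, and its call was lost when dim probe sets were tested too (adjusted p = 0.0880).

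Ndrg1 encodes a cytoplasmic protein that many cells make under hypoxia and other stress. Probe set 1420760_s_at read 9.02, 7.90 and 9.20 in Grem1- and 11.23, 10.90 and 10.80 in Grem1+, a difference of 2.27 (SE 0.39) or 4.81-fold (limma adjusted p = 0.0301). Probe set 1456174_x_at read 8.76, 9.60 and 9.60 against 11.69, 11.58 and 10.95, a difference of 2.09 (SE 0.42, adjusted p = 0.0409). Both have names that mark possible sharing with other sequences. Probe set 1450976_at, which has no such mark, read 8.85, 6.48 and 8.04 against 9.88, 9.62 and 9.40, without overlap. Its difference of 1.84 (SE 0.53) did not pass (adjusted p = 0.0842), and the Grem1- array of mouse 2 stood far below the others. Probe sets 1450977_s_at and 1423413_at lay near the dim limit. The first read 3.36 to 4.41 in Grem1- and at least 4.31 in Grem1+, a difference of 0.83 (adjusted p = 0.165), and the second, at 2.71 to 4.43 on the 6 arrays, was not tested.

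Hif1a encodes the oxygen-regulated subunit itself, whose control is mostly at the level of the protein. Probe set 1448183_a_at read 8.54, 9.06 and 8.76 in Grem1- and 10.47, 10.72 and 10.35 in Grem1+, a difference of 1.73 (SE 0.28) or 3.31-fold (limma adjusted p = 0.0276). Probe set 1427418_a_at read 9.26, 8.97 and 9.69 against 10.48, 10.33 and 10.96, a difference of 1.28 (SE 0.28, adjusted p = 0.0479) that was nearly the same in each mouse, at 1.22, 1.36 and 1.27. The groups did not overlap in either, and the second lost its call under quantile normalization (adjusted p = 0.0558). Probe set 1416035_at read 8.73, 8.68 and 6.81 against 9.75, 10.03 and 10.14 and did not pass (1.90, SE 0.57, adjusted p = 0.0927), with mouse 3 apart in Grem1-. Probe set 1431981_at read 7.96, 6.30 and 5.97 against 7.29, 5.65 and 7.24, a difference of -0.02 with a 95% interval from -1.42 to 1.39. It thus shows no shared direction, while the other 3 probe sets of the gene were higher in Grem1+ in all 3 mice.

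Egln3 encodes a prolyl hydroxylase that acts on HIF and is itself a well-known target of HIF in many cells. Its brighter probe set, 1418649_at, read 4.96, 4.69 and 5.53 in Grem1- and 2.56, 4.95 and 4.11 in Grem1+. The groups overlapped, and the difference of -1.19 (SE 0.60, 95% interval from -2.80 to 0.43) did not pass (limma adjusted p = 0.246). Raising dim values to the limit of 4 made it -0.71. Its other probe set, 1418648_at, was dim on all 6 arrays, at 1.85 to 2.56, so these arrays say little of Egln3 in either fraction.

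**Figure D2:**
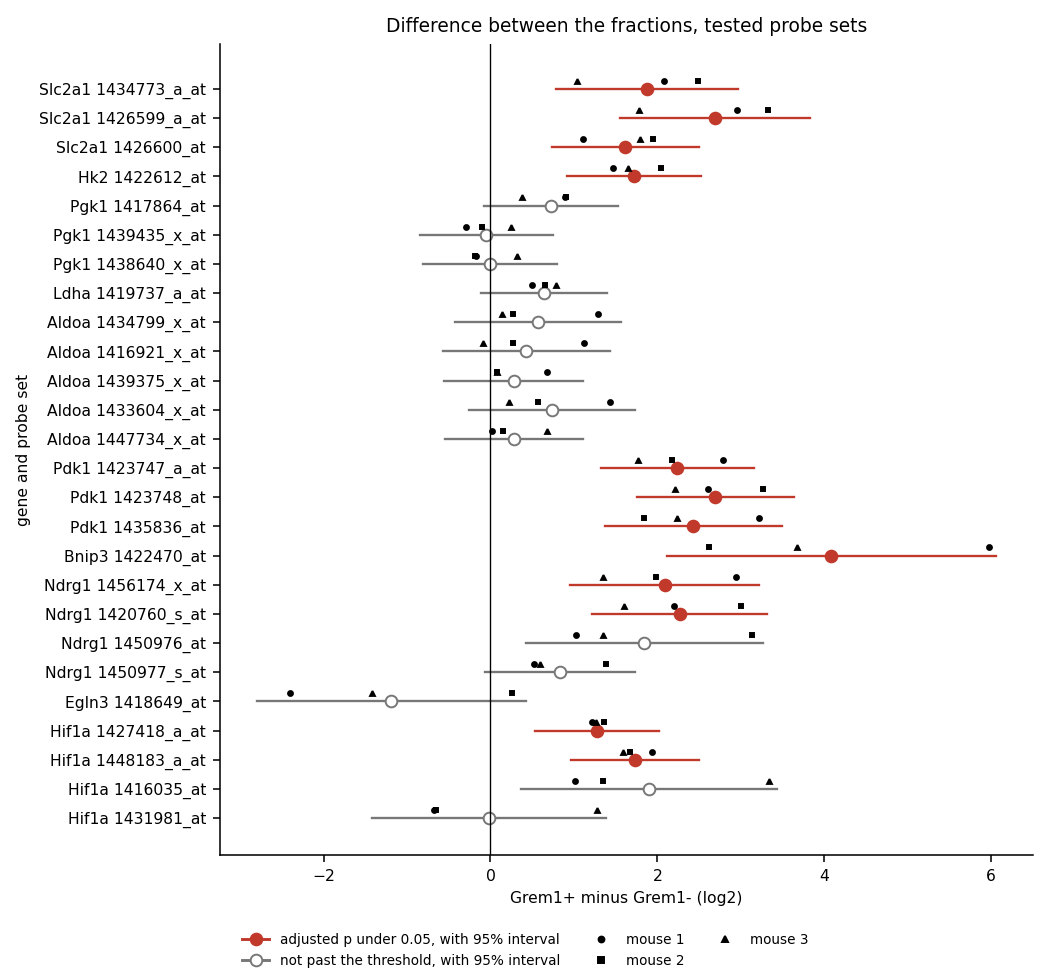
Difference Grem1+ minus Grem1- (log2, horizontal axis) of the 26 tested probe sets (vertical axis), as the limma estimate with its 95% interval, filled red where the adjusted p was under 0.05, and with the 3 mice as small black markers. The 12 called probe sets lie between 1.28 and 4.09, the Aldoa, Pgk1 and Ldha probe sets lie between -0.05 and 0.74, and Egln3 lies at -1.19.

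The bases before the start of some of these genes are shown because the called genes Bnip3, Slc2a1 and Hk2 were higher together and Pgk1 and Egln3 were not called, and because HIF binds a short core motif. The core was searched as ACGTG and as GCGTG, on either strand, in the 250 bases before each start in a RefSeq promoter table (build GRCm38.p6), which holds 13 windows for 9 of the 10 genes. A match was found in 11 of the 13 windows and in at least 1 window of each of the 9 genes. The matching windows of Aldoa overlap and hold the same single site, which is thus counted more than once. Of all 32851 windows of that length 38.6% held a match, 16.6% of ACGTG and 28.2% of GCGTG. The windows printed are the 5 that end directly before the outermost start of their gene, from 5′ to 3′ on the gene's strand, in lower case with each match or its reverse complement in capitals. They are chr7:138909507-138909756 and chr6:82774455-82774704 and chr12:54203875-54204124 on the minus strand, and chr4:119108495-119108744 and chrX:106186850-106187099 on the plus strand, all upstream of the first exon.
Bnip3: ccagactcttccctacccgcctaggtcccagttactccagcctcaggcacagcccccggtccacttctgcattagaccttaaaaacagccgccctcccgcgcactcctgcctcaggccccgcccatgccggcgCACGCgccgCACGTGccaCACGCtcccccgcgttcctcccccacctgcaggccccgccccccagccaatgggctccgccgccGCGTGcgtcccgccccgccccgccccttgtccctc
Slc2a1: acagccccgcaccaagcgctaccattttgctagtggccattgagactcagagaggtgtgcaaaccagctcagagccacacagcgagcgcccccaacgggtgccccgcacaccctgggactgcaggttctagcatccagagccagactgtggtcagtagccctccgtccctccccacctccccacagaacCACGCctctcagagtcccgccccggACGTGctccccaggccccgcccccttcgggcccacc
Hk2: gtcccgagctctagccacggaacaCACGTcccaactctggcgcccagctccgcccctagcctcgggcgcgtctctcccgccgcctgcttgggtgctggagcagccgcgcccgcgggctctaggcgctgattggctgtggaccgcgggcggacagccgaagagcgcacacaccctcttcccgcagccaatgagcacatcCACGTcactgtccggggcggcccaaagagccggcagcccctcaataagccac
Pgk1: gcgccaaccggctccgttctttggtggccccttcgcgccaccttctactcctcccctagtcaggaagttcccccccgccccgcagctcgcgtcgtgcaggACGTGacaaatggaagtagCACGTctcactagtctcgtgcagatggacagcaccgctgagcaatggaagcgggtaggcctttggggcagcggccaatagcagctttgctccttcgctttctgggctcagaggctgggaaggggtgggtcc
Egln3: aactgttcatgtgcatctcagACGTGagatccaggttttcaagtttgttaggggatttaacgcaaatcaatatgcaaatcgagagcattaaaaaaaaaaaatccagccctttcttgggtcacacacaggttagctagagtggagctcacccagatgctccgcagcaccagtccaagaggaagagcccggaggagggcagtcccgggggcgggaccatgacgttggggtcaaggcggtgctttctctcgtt
The Bnip3 window held 5 matches, 2 of them the strands of a single palindrome that starts 108 bases before the gene. The Slc2a1 window held an ACGTG 36 bases before the start and a GCGTG on the opposite strand at 61 bases. The Hk2 and Pgk1 windows held 2 ACGTG matches each, and the Egln3 window held 1, at 229 bases. A match was therefore present before called and uncalled genes alike, and a match of letters is not a measured binding site.

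The other genes of these pathways were taken from lists, each gene by its passing probe set with the highest mean. The lists, too, were chosen with earlier results of these data known. Over all 10151 genes read in this way 11.1% were higher and 7.81% lower in Grem1+, with a median difference of 0.04. The other hypoxia-response genes, the longest list, held the most calls. The other glycolysis enzymes, the citrate cycle and the entry of pyruvate into mitochondria held few or none. At these shares over all genes, lists this short would hold few calls anyway, so their low counts show little that is particular to them.

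Of 33 tested hypoxia-response genes outside the 10, 13 were higher and 0 lower, with a median difference of 1.15. The count of 0 lower depends on the fit, since some other analyses of the same table called genes of this list lower. Mxi1 (-3.22, limma adjusted p = 0.0522) and Ero1a (-2.52, adjusted p = 0.0554), named after their values were seen, lay just outside the threshold. Stc2, Ppp1r3c and Cox4i2 were dim on all Grem1- arrays and so passed the filter only through Grem1+, and Ppp1r3c is among the 13. Over the other 30 genes, 12 were higher and 0 lower, with a median of 1.12. P4ha2, a subunit of the collagen prolyl hydroxylase, read 4.49, 3.95 and 5.50 in Grem1- and 10.37, 10.16 and 10.19 in Grem1+, a difference of 5.59 (SE 0.42, limma adjusted p = 0.00992). Car12, a carbonic anhydrase of the cell surface, read 8.30, 5.34 and 4.75 against 10.55, 10.79 and 10.72, a difference of 4.56 (SE 0.84, adjusted p = 0.0349). The Grem1- arrays of Car12 were far apart, with mouse 1 high. Bhlhe40, a transcription factor induced by hypoxia, read 5.35, 6.29 and 5.91 against 9.96, 10.70 and 9.84, a difference of 4.32 (SE 0.31, adjusted p = 0.00992). Vegfa, the angiogenic factor best known as a HIF target, was named after its values were seen and differed by 1.87 (SE 0.29, adjusted p = 0.0243). P4ha2 modifies collagen, as do P4ha1 (2.64, SE 0.36, adjusted p = 0.0199) and Plod2 (4.25, SE 0.29, adjusted p = 0.00992), also named after their values were seen. Of 13 chondrocyte markers 12 were higher in Grem1+ as well, and a link between these results was not tested. Testing dim probe sets too left 8 of 38 higher, where 3.8% of all genes were. With a mouse left out the blocked fit called 0, and the fit without the block called 12, 9 and 6 without mouse 1, 2 and 3, where 6.92%, 7.19% and 6.85% of all genes were called higher.

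Of 18 tested glycolysis enzymes outside the 10, 0 were higher and 2 lower, with a median of 0.31, while 1 or 2 were higher in some other analyses of the same table, and 0 were lower when dim probe sets were tested too. Hk3, a hexokinase of myeloid cells, read 6.07, 4.99 and 5.88 in Grem1- and was dim on all Grem1+ arrays, at 3.75 to 3.81, so it was at least 3.13-fold lower (limma adjusted p = 0.0358). Hk3 passed the filter only through Grem1-, and over the 17 genes without it 0 were higher and 1 lower, with a median of 0.40. Hk1, named after its values were seen, differed by 0.65 (SE 0.41, adjusted p = 0.338). Ldhc, the lactate dehydrogenase of sperm, read 7.95, 6.59 and 7.90 against 6.64, 4.30 and 4.89, a difference of -2.20 (SE 0.43, adjusted p = 0.0394). Other enzymes, also named after their values were seen, differed the other way without passing, and in each of these all Grem1+ arrays lay above all Grem1- arrays. Pfkfb3, which makes an activator of phosphofructokinase, differed by 1.81 (adjusted p = 0.107), the phosphofructokinase genes Pfkm and Pfkp by 1.52 (adjusted p = 0.114) and 1.49 (adjusted p = 0.0770), and Tpi1, the triose phosphate isomerase, by 0.88 (adjusted p = 0.108). Gapdh was read here only through the array's control probe sets, of which the 3' set stood at 11.31, 11.54 and 11.36 in Grem1- and at 11.14, 11.71 and 11.18 in Grem1+ and was not tested.

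Of 9 tested transporters of glucose and lactate 2 were higher and 2 lower, with a median of -0.35. Slc2a3, the high-affinity glucose transporter GLUT3, read 9.80, 9.36 and 10.64 in Grem1- and 3.92, 6.80 and 6.02 in Grem1+, a difference of -4.35 (SE 0.72, limma adjusted p = 0.0278), and each of its 4 probe sets was lower. It thus ran opposite to Slc2a1, the other main glucose transporter of the list's family. Slc2a9, a urate transporter, differed by -2.94 (SE 0.50, adjusted p = 0.0294). Bsg, the chaperone of the lactate transporters, read 5.10, 5.29 and 4.93 against 8.46, 8.15 and 7.35, a difference of 2.88 (SE 0.33, adjusted p = 0.0155). The other higher gene was the monocarboxylate transporter Slc16a7, at 1.55 (SE 0.28, adjusted p = 0.0333), named after its values were seen. It lay near the dim limit, at 4.31, 2.82 and 3.33 in Grem1- and 5.94, 4.46 and 4.70 in Grem1+. Raising dim values to the limit of 4 made the difference 0.93.

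Of 17 tested oxygen sensors and HIF regulators 1 was higher and 1 lower, with a median of 0.08. Epas1, which encodes HIF-2 alpha, read 7.65, 7.02 and 6.25 in Grem1- and 9.81, 10.79 and 8.92 in Grem1+, a difference of 2.87 (SE 0.42, limma adjusted p = 0.0228). It joined Hif1a on the higher side, while its second probe set lay at or below 4.06 on all arrays and was not tested. Ep300, the gene of a coactivator that HIF recruits, read 9.55, 8.80 and 9.72 against 6.61, 7.33 and 6.15, a difference of -2.66 (SE 0.51, adjusted p = 0.0366). Among relatives of Egln3, named after their values were seen, Egln1 differed by 0.87 (adjusted p = 0.121) and Egln2 by -0.55 (adjusted p = 0.282).

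Mitochondrial steps after pyruvate gave no calls, at 0 of 9 genes of pyruvate entry (median -0.52) and 0 of 16 citrate cycle enzymes (median -0.28). Of all genes read in this way 11.1% were called higher and 7.81% lower, so lists this short would hold few calls anyway. At an unadjusted limma p under 0.05 these lists held Pdha1, Mpc1, Sdhc and Dlst, and 6360 of all 18157 tested probe sets were under it. Pdha1 and Pdhb, subunits of the enzyme that the Pdk1 product inhibits, differed by 0.88 (SE 0.31, limma adjusted p = 0.129) and -0.83 (SE 0.42, adjusted p = 0.245). Mdh2 differed by -0.15 with a 95% interval from -0.90 to 0.59, and Sdha by -0.35 with one from -1.23 to 0.53. Other genes of these lists, named after their values were seen, differed more, without overlap and without passing. Lower in Grem1+ were, among others, Sdhc (-1.45, adjusted p = 0.0999), Dlst (-0.93, adjusted p = 0.117), Cs (-0.83, adjusted p = 0.246) and Mpc1 (-0.83, adjusted p = 0.124). Pdk4 was higher without overlap (2.11, adjusted p = 0.152), as was Pdha1. Of 4 tested relatives of Ndrg1 and Bnip3, 2 were higher and 0 lower. Ndrg4 read 4.56, 3.41 and 5.61 against 8.90, 9.09 and 10.64, a difference of 5.02 (SE 0.38, adjusted p = 0.00992), and Ndrg2 differed by 4.11 (SE 0.34, adjusted p = 0.0102).

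**Figure D3:**
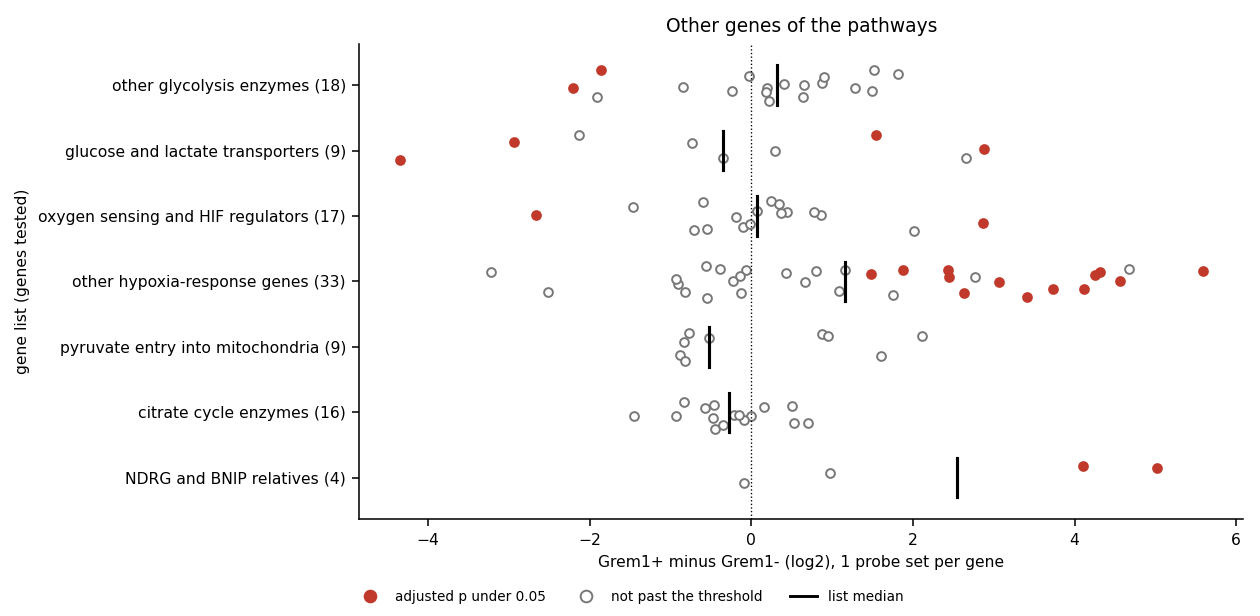
Difference Grem1+ minus Grem1- (log2, horizontal axis) of each tested gene in 7 pathway lists (vertical axis, with the number tested), red where the adjusted p was under 0.05, with the list median as a black bar. The other hypoxia-response genes hold 13 red points, all above 0, and the citrate cycle and pyruvate lists hold 0.

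Markers of other cell types moved with the fractions on the same arrays, and their part in these results was not tested. Chondrocyte markers averaged 6.78 to 7.41 over their 13 genes in Grem1- and 10.65 to 10.87 in Grem1+, and 12 of 13 were higher. Osteoblast markers averaged 5.13 to 5.46 and 7.90 to 8.08, and 4 of 7 were higher. Blood markers ran the other way, with 7 of 10 pan-haematopoietic, 9 of 12 neutrophil, 4 of 7 erythroid and 3 of 6 B lineage genes lower. Neutrophil markers averaged 10.36 to 10.53 in Grem1- and 5.99, 6.55 and 8.14 in Grem1+, highest in mouse 3. Of the erythroid list Epb42 and Hemgn, and of the B lineage list Cd79b, Vpreb1 and Rag1, were dim on every Grem1+ array, and of the osteoblast list Sp7 and Phex on every Grem1- array. Without such genes 3 of 5 osteoblast genes were higher, and 3 of 5 erythroid and 1 of 3 B lineage genes were lower. Of 4 endothelial genes 0 were called and Pecam1 and Tek were dim on every Grem1+ array, and of 5 stromal niche genes 1 was higher, Foxc1, which was dim on every Grem1- array. Each fraction is a mixture read as a whole, so fewer cells of a type and less RNA per cell cannot be told apart.

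**Figure D4:**
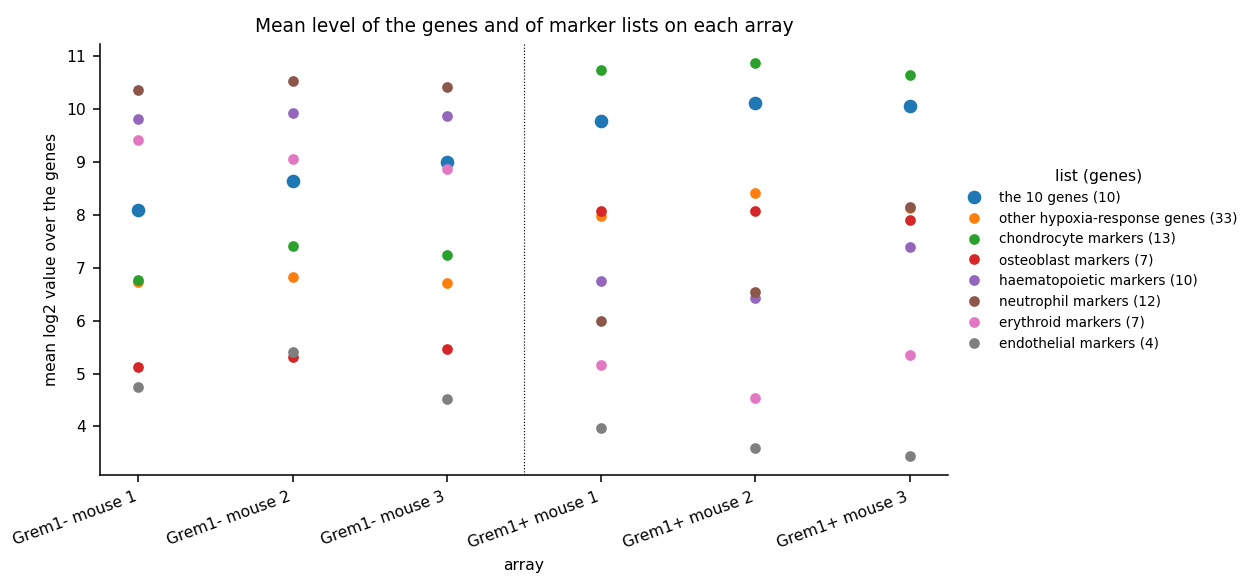
Mean log2 value over the genes of a list (vertical axis) on each of the 6 arrays (horizontal axis), with the 10 genes as large blue points and the number of genes in brackets. The 10 genes, read by 1 probe set each, lie between 8.10 and 9.01 in Grem1- and between 9.77 and 10.12 in Grem1+, and the chondrocyte markers are higher in Grem1+ too, while blood markers are lower in Grem1+.

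The genes whose 6 values, each centred on its own mean, lay nearest to those of Hif1a and Bnip3 were sought over the 6 arrays, by the root mean square distance in log2 units. For Hif1a (1427418_a_at) they were Ndufa4l2 at 0.12, Ncoa3 at 0.13 and Ift20 at 0.14. Ndufa4l2, itself one of the listed hypoxia-response genes, differed by 1.15 (SE 0.29, limma adjusted p = 0.0634) and did not pass. For Bnip3 they were Arhgap29 at 0.36, Fkbp9 at 0.41 and the cartilage gene Cnmd, which encodes chondromodulin, at 0.44, with differences of 4.31, 4.25 and 4.59. The nearest of the other 9 genes was farther away in each case, Pgk1 from Hif1a at 0.40 and Pdk1 from Bnip3 at 1.15. The nearest genes were picked from all 10151 tested genes, so the best of only 9 would mostly lie farther away, and nothing is concluded from it. With 6 arrays in 2 groups, such nearness mostly shows a like gap between the fractions.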

How the data were processed

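RNA of 6 sorted fractions was amplified, labelled with biotin and hybridised to Affymetrix arrays, per the labels' protocols. The deposited table gives each probe set's expression as a log2 value, a scale inferred from the range of the numbers. GCRMA, a method that subtracts background and normalizes arrays together, is named by the submitters' processing notes without version or settings. Gene symbols came from the platform annotation, and promoters from RefSeq. The members and lists were chosen with earlier results of these data known.

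Of 34945 probe sets with 1 symbol, 18157 (10151 genes) lay above log2 4 on at least 3 of the 6 arrays and were tested across all of them with limma 3.58.1 in R 4.3.3 (lmFit and eBayes, two-sided, Benjamini-Hochberg threshold 0.05), with the mouse as a block and 2 residual and 2.28 prior degrees of freedom. The method was tested on simulated data. The small number of arrays limits the precision.

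The design text states that fractions came from the same mice. Deviations of same-numbered arrays from their group means correlated at 0.014, 0.052 and 0.031 across probe sets. Named genes were all members, up to 3 called genes with the largest difference in each list (or the 2 brightest where none was called), and the 3 genes nearest in pattern to Hif1a and to Bnip3. Where a group was dim on every array, the fold is a bound computed after raising dim values to the limit. The alternatives were other filters, normalizations, probe set rules and limma settings, no block, and each mouse left out.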

Additional observations from a re-analysis of the deposited data

How the results depend on the processing

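The count of 12 member probe sets called higher was 11 to 13 with no replicate block, the stricter filter, median centring, cyclic loess, quantile normalization, values below log2 4 set to 4, and trend and robust settings, and 9 of 16 without shared probe sets. It was 5 without the filter on dim probe sets, where 34945 were tested. It was 6 with 1 probe set per gene and 5 with the mean of the passing probe sets, of 10 genes each, so it is smaller by construction. With the block and 1 mouse left out it was 0 for each mouse, and with no block it was 3 to 4. The count called lower was 0 in every one of these. Dropping the replicate block kept all 12 calls (12 in both fits). Signs changed only for uncalled probe sets near 0, for which the cause was not tested. Pgk1 1439435_x_at ranged from -0.20 to 0.072 over the left-out mice, and Pgk1 1438640_x_at from -0.18 to 0.075 (0.069 without mouse 1), with 0.026 under cyclic loess. Hif1a 1431981_at ranged from -0.66 to 0.31 over the left-out mice, with 0.024 under cyclic loess, and was 0.30 without mouse 2. The Hif1a probe set 1427418_a_at lost its call with the mean of probe sets (1.22, adjusted p = 0.0548), and without shared probe sets (adjusted p just above the threshold). The other hypoxia-response genes held 2 or 3 lower calls with no replicate block, the stricter filter, quantile normalization, trend and robust settings or the mean of probe sets. The smallest called difference of the 10 genes was 1.28.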

Other observations

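Some listed hypoxia-response genes lay far apart between the fractions without passing, and they are named here after their values were seen. Mxi1, which encodes an antagonist of MYC that HIF can induce, read 10.63, 10.33 and 10.63 in Grem1- and 8.52, 7.96 and 5.45 in Grem1+, a difference of -3.22 (SE 0.73, limma adjusted p = 0.0522). Ero1a, an oxidase of the endoplasmic reticulum, read 9.42, 10.01 and 9.58 against 8.37, 7.05 and 6.04, a difference of -2.52 (SE 0.58, adjusted p = 0.0554). Neither passed, the groups did not overlap in either gene, and mouse 3 was lowest in Grem1+ in both. Stc2, which encodes stanniocalcin 2, was dim in Grem1-, at 3.47 to 3.69, and read 5.46, 10.86 and 8.50 in Grem1+. Its 3 Grem1+ arrays were thus far apart, and it did not pass (adjusted p = 0.0531).

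The lactate exporter Slc16a3, a gene that HIF induces in many cells, read 7.70, 8.78 and 7.67 in Grem1- and 5.75, 5.46 and 6.54 in Grem1+, a difference of -2.14 (SE 0.52, limma adjusted p = 0.0602) that did not pass. Slc16a1, the other common lactate carrier, differed by 0.29 (SE 0.29).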
